A study of Mus musculus with 24 samples.

Results

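The genes described here are the coat proteins of the lipid droplet, the lipase that starts lipolysis, its inhibitor and the fatty acid transporter Cd36, measured in mouse liver. The members are Cidea, Cideb, Cidec, Plin2, Plin3, Plin4, Plin5, G0s2, Pnpla2 and Cd36. They were found by an exact match of the gene name carried by each array probe, which gave all 10 genes and 13 of the 56605 probes on the array (2 probes for Cideb, Plin2 and Plin5, 1 for each other gene). The total of gene names on the array was 37074. All 13 probes lay well above background on all 24 arrays, so every member passed the filter on dim probes and was among the 30003 probes tested.

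The livers came from male C57Bl6J mice, 1 mouse per array, killed while fasting. The reference group (labelled STD_Cont, n = 9) belonged to a control fatty acid lineage, whose ancestors' feed was enriched in oleic acid from sunflower oil, and ate a low fat diet. The HFoleic group (HFD_Cont, n = 8) belonged to the same control lineage and ate a high fat diet. The HFepa group (HFD_O3, n = 7) belonged to an n-3PUFA lineage, whose ancestors' feed was enriched in eicosapentaenoic acid (EPA) from fish oil, and ate the high fat diet. HFoleic against reference is the comparison of diets within the control lineage, and HFepa against HFoleic is the comparison of lineages under the high fat diet. HFepa differs from reference in both lineage and diet, which cannot be told apart in that comparison, since the labels give no EPA lineage group on the low fat diet. The labels do not give age, time on the diet, or whether mice of a group shared a litter, so p-values measure the spread between these mice only.

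In hepatocytes, triglyceride is stored in lipid droplets, whose surface carries perilipins (Plin proteins) that shield the stored fat and CIDE proteins that help small droplets exchange lipid and grow. Adipose triglyceride lipase, encoded by Pnpla2, takes the first fatty acid off the triglyceride, Abhd5 activates it and G0s2 inhibits it. Fatty acids enter the cell partly through Cd36, and many genes of this group are known targets of the PPAR family of nuclear receptors and rise in the liver with fasting or with fat loading.

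Values below are normalized log2 signals of single probes, and differences are differences of these values between groups (a log2 difference of -1 is a signal lowered to 50%). Each probe has its own efficiency, so no level is set against the level of another gene. Hepatocyte markers were high on every array: the summed linear signal of 8 hepatocyte markers ranged from 1084170 to 1272710 units in reference, from 1197140 to 1256760 in HFoleic and from 1196660 to 1269200 in HFepa. This sum rests largely on Alb and Serpina1a (reference means 18.26 and 18.30). Quantile normalization gives every array the same set of values, which holds so bright a sum nearly level, so it does not measure hepatocyte content. The median spot signal of an array ranged from 59.5 to 89.0 units, between 50.9% and 60.8% of probes were well above background, and no spot was saturated. None of the 8 macrophage and Kupffer cell markers, 6 endothelial markers and 3 blood markers differed between groups in the limma fit, whereas 2 of 8 hepatocyte markers (Cps1 and Tat) were lower in HFoleic and 1 of 3 tested bile duct markers (Sox9, at 1 of its 2 probes) was lower there. These counts use the brightest probe, and 1 of the 2 probes of the hepatocyte marker Ttr, not the brightest, was also called in HFoleic. In whole liver, fewer cells of a type and less RNA per cell cannot be told apart.

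Reference mice 4 and 5 stood apart in 2 of the 7 adipocyte markers that were tested beside Car3. Fabp4, the fatty acid binding protein of fat cells, was at 13.22 and 12.91 in these mice and between 9.40 and 10.71 in the other 22. Retn, the hormone resistin of mouse fat cells, was at 9.38 and 8.22 there and between 5.75 and 7.54 elsewhere. Cfd, at 12.36 and 11.97 in these mice, reached 13.40 in another mouse, Adrb3 and Lipe lay within the range of the other 22, Plin1 was at 6.37 and 5.99 (up to 6.17 elsewhere), and Lep was lowest of all in mouse 5, at 7.26. Car3, which hepatocytes also express, was the only adipocyte marker of 8 that limma called (HFoleic minus reference 1.38, adjusted p 0.0245, at 1 of its 3 probes). With Car3 the list summed to medians of 24653 linear units in reference, 75158 in HFoleic and 44505 in HFepa. Without Car3, the 7 markers summed to 1816 to 16929 linear units in reference, 2076 to 13062 in HFoleic and 2126 to 7451 in HFepa. The sum of HFoleic replicate 6, 13062, was close to the 13211 of reference mouse 5, but its make-up differed. Cfd, Fabp4 and Retn were at 13.40, 10.11 and 6.11 in HFoleic replicate 6, and at 11.97, 12.91 and 8.22 in mouse 5. Of the defining markers, Plin1 was dim in all groups (means 5.92, 5.91 and 5.84). At any of its 3 probes, Plin1 was well above background on 8, 7 and 3 arrays of reference, HFoleic and HFepa. Adipoq was well above background on 5, 2 and 2 arrays of these groups, and Ucp1, the marker of brown fat, on 2, 0 and 0. Values without both mice, a check chosen after their markers were seen, are given beside each difference that they moved by over 1.5 times or across the threshold, and the part of fat tissue in these results was not tested.

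Promoter sequences are shown for the 3 genes that limma called in HFoleic against reference (Plin5, Pnpla2 and Cidec) and for Plin2, a perilipin of the same family as Plin5 that did not pass the test. They come from RefSeq on GRCm38.p6, run 5′ to 3′ on the gene's strand and cover 250 bases before to 50 bases after a transcription start, which makes 300 bases. Windows of 9 of the 10 members were used, matched by symbol, which made 11 promoters, with 2 starts each for Cidec and Plin5. Capitals mark AGGTCA, the hexamer that many nuclear receptors bind, on either strand (its complement reads TGACCT), and CACGTG, the E-box.
Plin5, chr17:56117499-56117798, minus strand: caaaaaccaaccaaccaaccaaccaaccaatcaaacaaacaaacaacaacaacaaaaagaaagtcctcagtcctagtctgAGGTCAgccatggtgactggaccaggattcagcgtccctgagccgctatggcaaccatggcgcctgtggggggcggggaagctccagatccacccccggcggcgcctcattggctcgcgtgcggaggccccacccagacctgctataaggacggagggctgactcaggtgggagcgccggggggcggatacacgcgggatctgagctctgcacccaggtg
Pnpla2, chr7:141454938-141455237, plus strand: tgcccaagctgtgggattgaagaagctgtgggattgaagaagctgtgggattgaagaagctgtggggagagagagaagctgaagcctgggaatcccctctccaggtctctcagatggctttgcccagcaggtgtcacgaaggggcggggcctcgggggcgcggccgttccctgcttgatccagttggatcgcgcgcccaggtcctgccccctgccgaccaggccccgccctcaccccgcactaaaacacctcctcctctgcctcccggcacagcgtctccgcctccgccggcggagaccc
Cidec, chr6:113435711-113436010, minus strand: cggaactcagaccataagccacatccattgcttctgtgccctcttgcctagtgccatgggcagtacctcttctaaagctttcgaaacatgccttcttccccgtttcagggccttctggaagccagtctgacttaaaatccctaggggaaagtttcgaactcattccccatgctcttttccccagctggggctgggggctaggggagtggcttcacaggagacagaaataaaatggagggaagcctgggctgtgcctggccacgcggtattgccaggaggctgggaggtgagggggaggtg
Plin2, chr4:86670010-86670309, minus strand: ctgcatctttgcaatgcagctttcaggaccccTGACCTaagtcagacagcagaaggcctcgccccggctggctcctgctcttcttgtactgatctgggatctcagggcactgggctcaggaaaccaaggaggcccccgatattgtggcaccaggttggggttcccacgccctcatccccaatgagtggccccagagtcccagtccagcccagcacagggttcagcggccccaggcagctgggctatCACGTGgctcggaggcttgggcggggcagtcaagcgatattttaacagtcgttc

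AGGTCA was found in the windows of Cd36, Plin2 and both starts of Plin5, and in 16.3% of all 32851 RefSeq promoters of this length. It started 170 bases before the start site in the Plin5 window shown, 13 bases after the other Plin5 start, 218 bases before that of Plin2 and 228 bases before that of Cd36. The E-box of Plin2 overlaps its start site, and 7.15% of all promoters hold that motif. No window of a member held 2 copies of AGGTCA in the same direction with any 1 base between them, which 0.0396% of promoters hold on either strand and which includes the single hexamer. The forkhead motif GTAAACA, held by 3.65% of promoters on either strand, was found in none of them. The windows of Pnpla2, both starts of Cidec, Cideb, G0s2, Plin3 and Plin4 held none of these letters.

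Under the high fat diet in the control lineage, the lipase gene Pnpla2, the perilipin gene Plin5 and the CIDE gene Cidec were lower than in reference mice, and the other 7 members did not pass the test. The call of Cidec was lost in some settings, given below. In HFoleic against reference, limma called 4 of the 13 probes (30.8%) at an adjusted p under 0.05, against 7.23% of all probes tested, and all 4 were lower, against 3.19% of all probes called lower. They belonged to Pnpla2, Plin5 (both probes) and Cidec. No member was called higher, against 4.05% of all probes. In HFepa against reference limma called 0 of 13, against 0.393% of all probes, while 5 had an unadjusted p under 0.05, as did 13.5% of all probes, and the methods' t-test called 0, as it did over all probes. In HFepa against HFoleic 0 of 13 were called, against 0% of all probes, 0 had an unadjusted p under 0.05, against 9.7% of all probes, and the methods' t-test called 0, again as over all probes. Over the brightest probe of each gene, the median difference was -0.13 for HFoleic, with 6 of 10 genes below 0, and -0.25 for HFepa, with 8 of 10 below 0, both from the same reference mice. The median over all probes tested was 0.00 in size in each comparison.

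**Figure D1:**
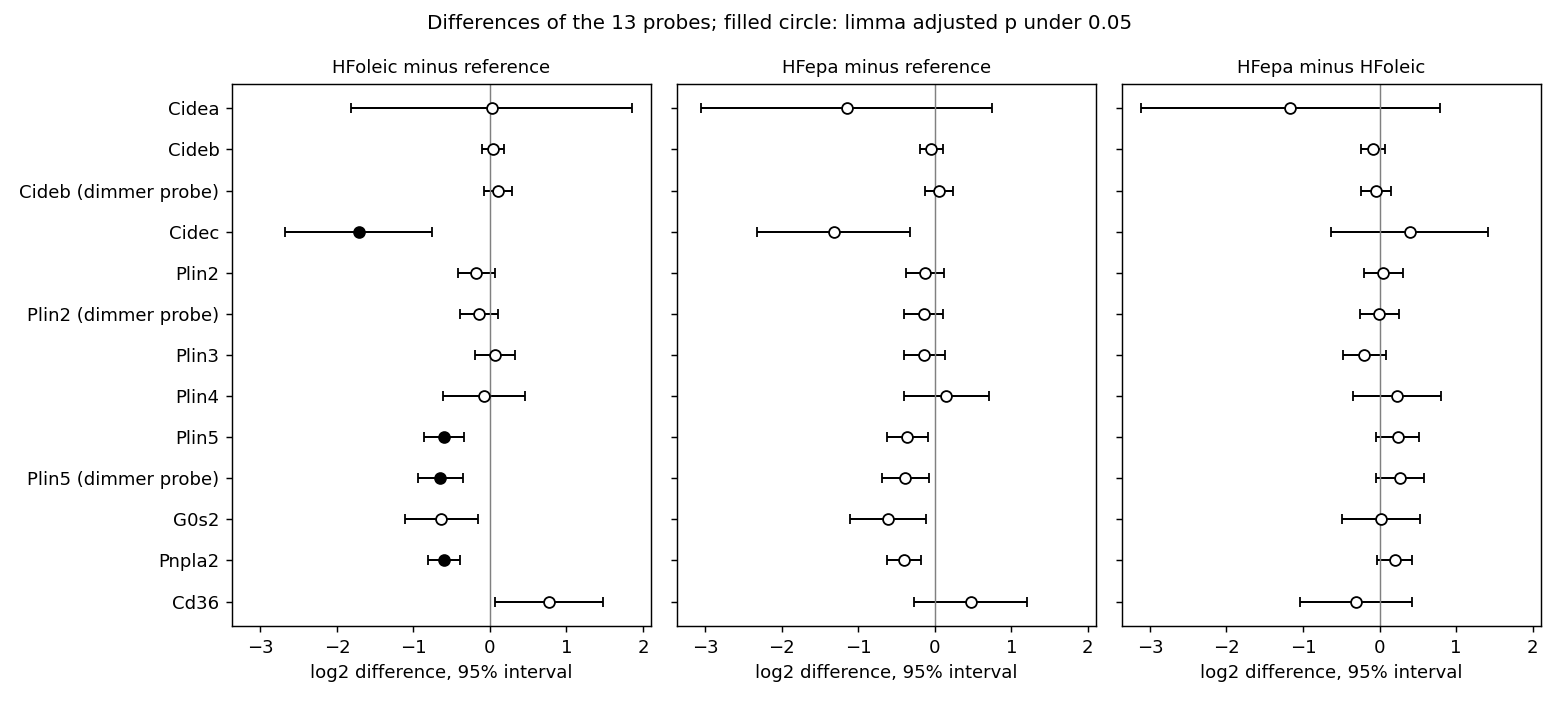
Log2 difference of each of the 13 probes (horizontal axis) with its 95% interval from the limma fit, in the 3 comparisons, with filled circles for adjusted p under 0.05. The 4 filled circles, all left of 0, are Cidec, both probes of Plin5 and Pnpla2 in HFoleic minus reference.

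Pnpla2, the lipase gene, gave the clearest separation of groups. Its probe (mm9 chr7:148645928-148645987) read 13.08 to 13.68 in the 9 reference mice with a median of 13.33, 12.37 to 13.07 in the 8 HFoleic mice with a median of 12.77, and 12.84 to 13.30 in the 7 HFepa mice with a median of 12.90. Every HFoleic mouse lay below every reference mouse, the nearest at 13.0745 (HFoleic replicate 7) and 13.0798 (reference replicate 6). Groups without overlap, in either direction, were found for 0.573% of all probes tested in that comparison. The group means were 13.36 ± 0.21 (SD, n = 9), 12.76 ± 0.27 (SD, n = 8) and 12.96 ± 0.16 (SD, n = 7). HFoleic was 1.51-fold lower than reference (log2 difference -0.60, SE 0.10, limma adjusted p 0.00154), with -0.85, -0.58 and -0.39 within the 3 slides.

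For HFepa, 6 of the 7 mice lay below every reference mouse and the other, replicate 1, lay at 13.30. The difference from reference was -0.40 (SE 0.11, limma adjusted p 0.0855), which missed the threshold. Without reference replicate 8 it was -0.43 with an adjusted p of 0.0415 in limma. HFepa lay between the other groups in its mean, and its difference from HFoleic was 0.20 with a 95% interval of -0.03 to 0.42 (limma adjusted p 0.579), although all 7 HFepa mice lay above the HFoleic mean.

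G0s2 encodes the inhibitor of that lipase. Its probe (mm9 chr1:195098925-195098984) read 12.67 to 14.27 in reference (median 14.12), 12.70 to 13.73 in HFoleic (median 13.28) and 12.19 to 14.06 in HFepa (median 13.14). The 3 groups overlapped, but 8 of 8 HFoleic mice lay below the reference mean of 13.86 ± 0.52 (SD, n = 9). The HFoleic difference was -0.64 (SE 0.23, limma adjusted p 0.10) and the HFepa difference -0.62 (SE 0.24, limma adjusted p 0.247), neither past the threshold. The lowest reference value was that of mouse 5. Without this mouse the HFoleic difference was -0.79 (limma adjusted p 0.0204), and without mice 4 and 5 together it was -0.85 (limma adjusted p 0.0173). HFepa and HFoleic differed by 0.02, with a 95% interval of -0.49 to 0.53.

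**Figure D2:**
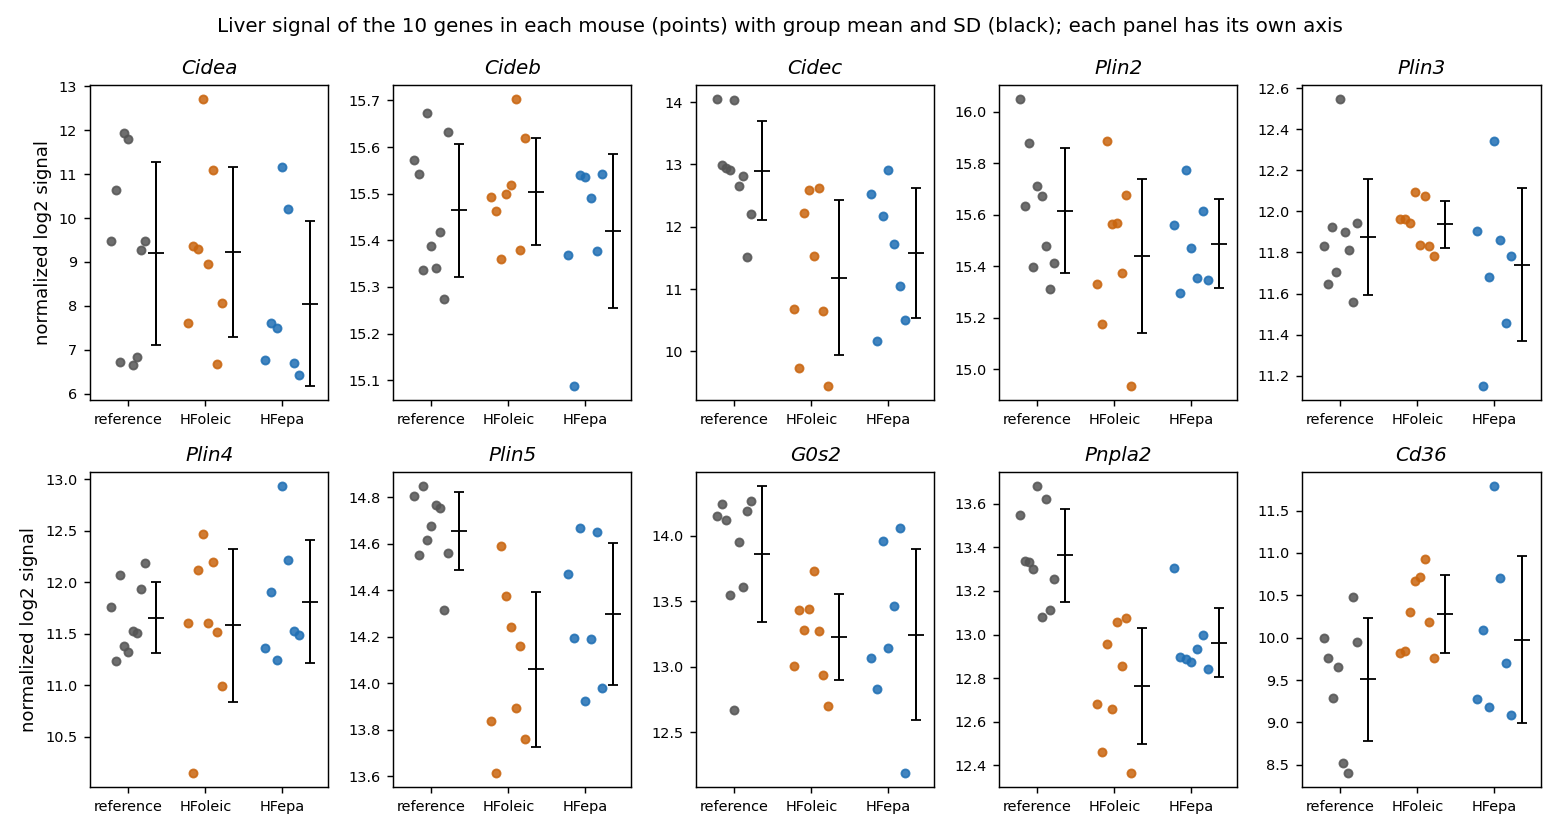
Normalized log2 signal (vertical axis, a separate scale in each panel) of the brightest probe of each gene in every mouse, by group, with the group mean and SD in black. Pnpla2 shows 8 HFoleic mice below all 9 reference mice, and Cidea spreads from 6.42 to 12.70 within overlapping groups (the Cd36 panel has 8 reference mice).

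Plin5, the perilipin of oxidative tissues that sits where droplets meet mitochondria and binds the lipase and its activator, was lower in HFoleic with both of its probes. The brighter probe (mm9 chr17:56251025-56251084) read 14.32 to 14.85 in reference (median 14.68), 13.62 to 14.59 in HFoleic (median 14.03) and 13.92 to 14.67 in HFepa (median 14.19). In HFoleic 6 of 8 mice lay below all reference mice, and in HFepa 4 of 7 did. The HFoleic difference was -0.60 (SE 0.13, limma adjusted p 0.00563), a 1.51-fold lower signal, and it was -0.65, -0.71 and -0.45 within the slides. The dimmer probe (chr17:56251101-56251160), which lies beside the brighter one on the same transcript, gave -0.65 (limma adjusted p 0.00695). For HFepa the differences from reference were -0.36 and -0.39 (limma adjusted p 0.211 and 0.244), and within the slides the brighter probe gave -0.00, -0.43 and -0.64. The difference between the high fat groups was 0.24 with a 95% interval of -0.04 to 0.52 (limma adjusted p 0.588).

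The other perilipins did not pass the test in any comparison. Plin2, the main perilipin of hepatocyte droplets, whose protein is stabilised by stored fat, read 15.31 to 16.05 in reference (median 15.63), 14.94 to 15.89 in HFoleic (median 15.47) and 15.30 to 15.78 in HFepa (median 15.47) at its brighter probe (mm9 chr4:86302847-86302906). The groups overlapped. Its HFoleic difference was -0.18, with a 95% interval of -0.41 to 0.06, and the dimmer probe gave -0.14. The HFepa difference from reference was -0.13 at the brighter probe and -0.14 at the dimmer.

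Plin3, a perilipin that is also found in the cytosol and coats small new droplets, read 11.56 to 12.55 in reference, 11.78 to 12.10 in HFoleic and 11.15 to 12.34 in HFepa (mm9 chr17:56418429-56418488). Its differences were 0.06 in HFoleic and -0.13 in HFepa from reference, and -0.20 between the high fat groups with a 95% interval of -0.48 to 0.08. Without reference mice 4 and 5 the differences from reference were 0.13 and -0.063. Plin4, best known from fat and muscle, read 11.23 to 12.19 in reference, 10.15 to 12.47 in HFoleic and 11.24 to 12.93 in HFepa (mm9 chr17:56240055-56240114). The groups overlapped, and the differences from reference were -0.07 in HFoleic (95% interval -0.61 to 0.46) and 0.15 in HFepa (-0.41 to 0.71). Without reference mice 4 and 5 they were -0.16 and 0.066.

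Cidec, which fuses droplets into larger ones and is known as Fsp27 in mice, had the largest difference among the members called. Its probe (mm9 chr6:113374693-113374752) read 11.51 to 14.05 in reference (median 12.91), 9.45 to 12.62 in HFoleic (median 11.11) and 10.17 to 12.92 in HFepa (median 11.73). In HFoleic 4 of 8 mice lay below all reference mice and the other 4 overlapped with them. The HFoleic signal was 3.29-fold lower (log2 difference -1.72, SE 0.47, 95% interval -2.68 to -0.75, limma adjusted p 0.0243), and 8 of 8 mice lay below the reference mean of 12.90 ± 0.80 (SD, n = 9). This call depended on single mice: it was lost without HFoleic replicate 2 (-1.51, limma adjusted p 0.0549), HFoleic replicate 8 (-1.47, 0.0594) or reference replicate 1 (-1.57, 0.0533), without reference mice 4 and 5 together (-1.55, 0.0629), and in the methods' t-test (adjusted p 0.0581). Within the slides the difference was -2.40, -2.48 and -0.51.

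The HFepa difference of Cidec from reference was -1.32 (SE 0.48, limma adjusted p 0.212), with 6 of 7 mice below the reference mean. Between the high fat groups it was 0.40, with a 95% interval of -0.63 to 1.42 (limma adjusted p 0.846). The interval thus holds differences in either direction.

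Cidea, a CIDE gene typical of brown fat that liver also expresses under fat loading, varied more between mice of a group than all other probes tested except 2, both of the adipocyte marker Cfd (within-group SD 2.17 and 2.06). Its probe read 6.65 to 11.94 in reference (median 9.47), 6.69 to 12.70 in HFoleic (median 9.13) and 6.42 to 11.16 in HFepa (median 7.49). The groups overlapped almost fully, with a 39.1-fold range in reference, a 64.7-fold range in HFoleic and a 26.7-fold range in HFepa. The mean of HFoleic differed from reference by 0.02 (95% interval -1.81 to 1.85) that of HFepa from reference by -1.15 (-3.05 to 0.75, limma adjusted p 0.648), and that of HFepa from HFoleic by -1.17 (-3.12 to 0.79, limma adjusted p 0.725). The last was -0.67 without HFoleic replicate 4 and -1.69 without HFepa replicate 4. The highest reference values of Cidea were those of mice 4 and 5, and without both the HFoleic difference was 0.78 (limma adjusted p 0.647) and the HFepa difference from reference -0.39 (limma adjusted p 0.917). The 6 mice with the highest adipocyte sums without Car3 were reference 4 and 5, HFoleic 4 and 6, and HFepa 4 and 5. They were 6 of the 7 mice with the highest Cidea, at 10.21 to 12.70. The other 18 mice had a median of 7.61, and the highest of them, reference 2 at 10.645, lay above HFepa 5 at 10.21. The cut-offs of 6 and 7 mice were not set in advance. The lowest of the 6 sums, 4668 linear units in HFepa 4, was close to the next, 4381 in reference 8. The 6 sums differed in make-up. Cfd stood at 11.90, 13.40, 10.82 and 12.48 in HFoleic 4 and 6 and HFepa 4 and 5, against 12.36 and 11.97 in reference 4 and 5. Fabp4 stood at 10.01, 10.11, 10.71 and 9.79 there, against 13.22 and 12.91 in reference 4 and 5. The part of fat tissue in this spread was not tested.

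Cideb, the CIDE gene of hepatocytes with a role in lipoprotein lipidation, was the steadiest member. Its brighter probe (mm9 chr14:56372942-56373001) averaged 15.46 in reference, 15.50 in HFoleic and 15.42 in HFepa, with SDs of 0.14, 0.11 and 0.16 over 9, 8 and 7 mice. Its differences from reference were 0.04 (95% interval -0.11 to 0.19) and -0.04 (-0.19 to 0.11), the latter -0.025 without reference mice 4 and 5. The dimmer probe (chr14:56377150-56377209) gave 0.10 and 0.06, neither past the threshold.

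Cd36, which carries long chain fatty acids across the cell membrane, had the largest difference above reference among the members. Its probe (mm9 chr5:17288600-17288659) read 8.41 to 10.48 in 8 reference mice (median 9.71), 9.76 to 10.93 in HFoleic (median 10.25) and 9.09 to 11.79 in HFepa (median 9.70). All 8 HFoleic mice lay above the reference mean of 9.51 ± 0.73 (SD, n = 8), and 3 of them lay above every reference mouse. The difference was 0.77 (SE 0.34, limma adjusted p 0.191), which did not pass the test. The scanner software had marked the Cd36 spot of reference mouse 5 as an outlier, so the fit left it out. Had it been kept, it would have read 12.27, above every other mouse, and the HFoleic difference would have been 0.46 (limma adjusted p 0.589). The HFepa difference from reference was 0.47 (limma adjusted p 0.625), and it was 0.16 with that spot kept and 0.17 without HFepa replicate 4. The HFepa difference from HFoleic was -0.30 (limma adjusted p 0.830), and -0.61 without HFepa replicate 4.

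The members differed widely in how much they varied between mice of the same group. The within-group SD was 1.97 for Cidea, 1.03 for Cidec, 0.74 for Cd36, 0.57 for Plin4 and 0.51 for G0s2, against a median of 0.18 over all probes tested. These SDs stood at percentiles 100, 99.8, 99.1, 97.7 and 96.7 of all probes tested. The SD of Pnpla2 was 0.22 (percentile 65.2) and that of the brighter Cideb probe 0.14 (percentile 25.3). At these spreads a log2 difference of -0.60 passed the test for Pnpla2 and Plin5, and one of -0.64 did not for G0s2.

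Some pairs of members moved together from mouse to mouse within groups. After the group means had been subtracted, Pearson's r was above 0 for 33 of the 45 pairs, and 6 pairs, all positive, had an adjusted permutation p under 0.05 (two-sided, mice permuted within groups, Benjamini-Hochberg over 45). The same counts were not made over pairs of all genes tested, so these say nothing particular to the members as a set. Plin2 and Plin5, the perilipins of hepatocyte droplets, were the closest, with r = 0.79 (permutation p 2e-05, adjusted 0.0009) and rho = 0.81 (permutation p 4e-05, adjusted 0.0018) over 24 mice. Without the 2 mice farthest from the median of Plin2, r was 0.74, and it was 0.75 in reference, 0.89 in HFoleic and 0.79 in HFepa. Within the 2 rows of the slides it was 0.71 and 0.82. Within the 3 slides it was 0.89, 0.90 and 0.73. Plin5 passed the test between HFoleic and reference and Plin2 did not, and the difference between the genes was not tested.

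Cd36 and Cidea formed another close pair, with r = 0.74 (permutation p 0.00013, adjusted 0.00285) and rho = 0.75 (permutation p 0.00018, adjusted 0.00405) over 23 mice. It was 0.65 without the 2 farthest mice of Cd36, 0.77 without reference mice 4 and 5, 0.56 and 0.90 by slide row, and 0.79, 0.91 and 0.64 by slide. Cd36 and Plin4 had r = 0.67 (permutation p 0.00019, adjusted 0.00285) and rho = 0.68 (permutation p 0.00041, adjusted 0.00615), with 0.60 without the 2 farthest mice of Cd36 and 0.18, 0.78 and 0.75 by slide. Cidec went with Plin2 (r = 0.66, adjusted permutation p 0.0105) and Plin3 (r = 0.61, 0.00461), and Plin2 with Pnpla2 (r = 0.59, 0.0469). By slide, r of Cidec and Plin2 was 0.78, 0.88 and 0.33. By slide row, r of Cidec and Plin3 was 0.35 and 0.74. For Plin2 and Pnpla2, r was 0.39 in reference, 0.84 in HFoleic and 0.26 in HFepa. It was 0.47 without the 2 farthest mice of Plin2 and 0.62 without those of Pnpla2. The lowest r was that of Plin3 and G0s2, -0.32. The pairs share arrays and normalization. The 6 mice with the highest adipocyte sums held 4 of the 7 highest values of Plin3 and of Plin4, and the 5 of them with a Cd36 value held 4 of the 7 highest of Cd36, beside the 6 of 7 given above for Cidea. The 6 mice held 3 of the 7 highest values of Cidec, 2 of Cideb and of Pnpla2, 1 of Plin2 and of Plin5, and 0 of G0s2. Among these 6 mice Fabp4 stood apart only in reference 4 and 5, and the part of the adipocyte markers in the pairs was not tested.

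**Figure D3:**
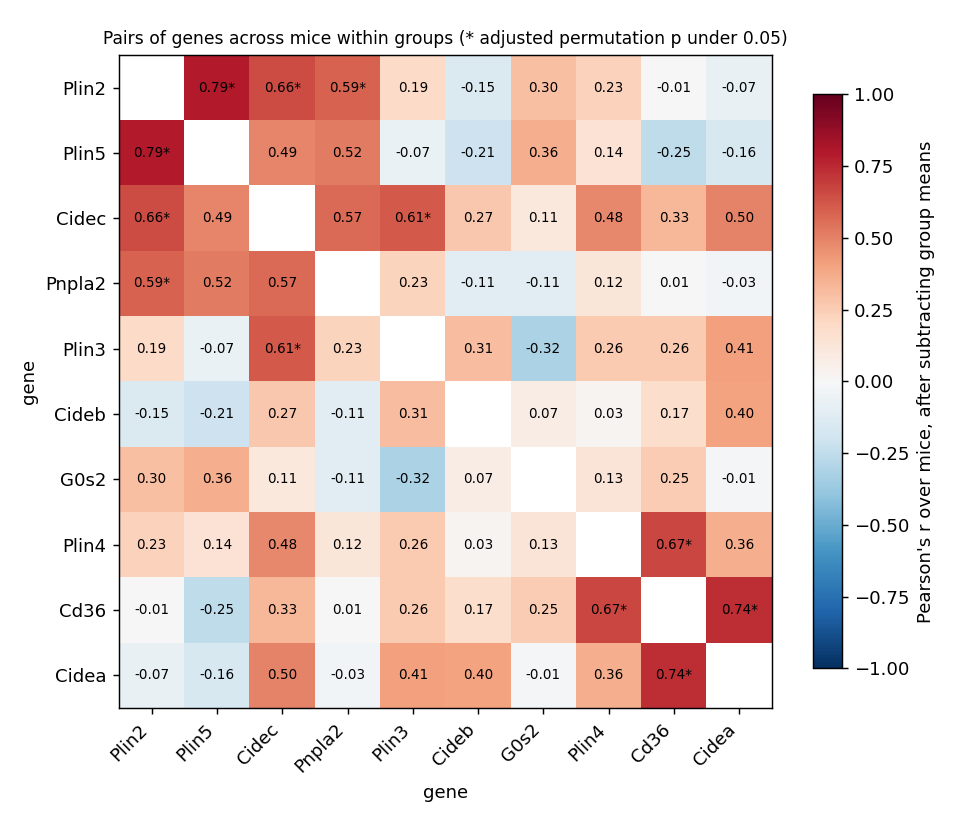
Pearson's r of each pair of genes over the mice after subtraction of group means (23 mice for pairs with Cd36, 24 for the others), coloured from -1 (blue) to 1 (red), with a star for adjusted permutation p under 0.05. Plin2, Plin5, Cidec and Pnpla2 have positive values with each other from 0.49 to 0.79, and Cd36 pairs with Cidea at 0.74 and with Plin4 at 0.67. Cidec with Plin5, Plin5 with Pnpla2 and Cidec with Pnpla2 carry no star (adjusted permutation p 0.157, 0.0851 and 0.0552).

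The genes whose pattern over mice was most like that of a member were sought in the same way among all genes tested, and are named for the 4 members with the highest r. They were Lgals1 (r = 0.90), Pparg (0.87) and Wwtr1 (0.86) for Cd36 over 23 mice, and Lgals1 (0.89), Il4i1 (0.85) and Treh (0.84) for Cidea over 24 mice. Lgals1, which encodes galectin 1, led both lists. For Cideb they were C030006K11Rik (0.88), Oxld1 (0.85) and 0610010K14Rik (0.83), and for Plin3 Ap1s1 (0.87), Mroh1 (0.84) and Iqce (0.83). These are the highest of many values, given as a description.

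Of 20 other genes of droplets and lipolysis, 19 were tested and 0 were called by limma in any comparison, Abhd5, Lipe, Mgll and Hsd17b13 among them. The median difference of this list was -0.02 in HFoleic and 0.03 in HFepa from reference. Abhd5, the activator of the lipase, averaged 9.48 in reference, 9.54 in HFoleic and 9.51 in HFepa, with SDs of 0.14, 0.07 and 0.09.

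Of 12 other genes of fatty acid uptake and binding, 2 were higher in HFoleic and none lower. Vldlr, the receptor for very low density lipoprotein, rose by 0.83 (SE 0.24, limma adjusted p 0.0338) with both of its probes called, from 7.55 ± 0.53 (SD, n = 9) to 8.38 ± 0.41 (SD, n = 8). Slc27a5, a fatty acid transport protein of the liver that also activates bile acids, rose by 0.17 (SE 0.05, limma adjusted p 0.0489). The median of this list was 0.03 in HFoleic and -0.04 in HFepa, where 0 of 12 were called by limma.

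Of 13 nuclear receptors and other regulators, 2 were higher and 1 lower in HFoleic. Srebf1, which drives fatty acid synthesis genes, rose by 1.02 (SE 0.22, limma adjusted p 0.00552), from 12.04 ± 0.46 (SD, n = 9) in reference to 13.05 ± 0.38 (SD, n = 8). Mlxipl, which encodes the carbohydrate response factor ChREBP, rose by 0.55 in HFoleic (limma adjusted p 0.00163) and by 0.44 in HFepa (0.0458), at 1 of its 3 probes in each comparison. Ppargc1a, the coactivator of PPAR alpha and of gluconeogenic genes in fasting, fell by 0.54 in HFoleic (SE 0.15, limma adjusted p 0.0296) with both of its probes called, and its HFepa difference was -0.62 (limma adjusted p 0.070). RT-qPCR in the paper that reported these livers marked no change of Ppargc1a from reference in either group. It marked Srebf1 and Mlxipl as changed in HFoleic, both upward, and neither in HFepa. Ppara, the fasting receptor of the liver, differed by 0.16 and 0.18 (limma adjusted p 0.444 and 0.538), and Pparg by 0.45 and 0.12 (0.144 and 0.854), in HFoleic and HFepa. In HFepa against HFoleic none of these 3 lists had a called gene in limma, with medians of 0.01, -0.03 and -0.05 in the order given.

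**Figure D4:**
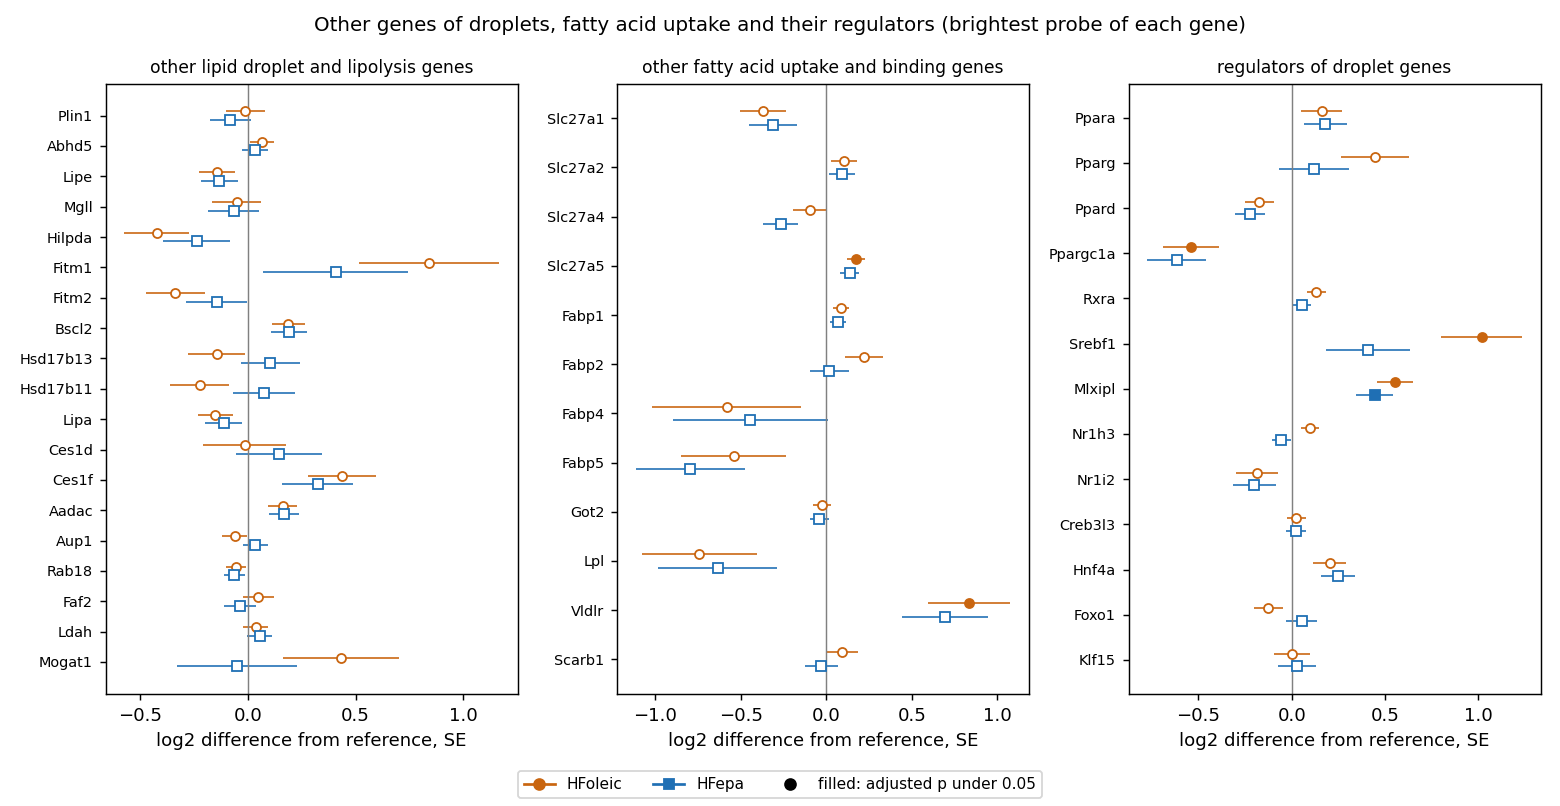
Log2 difference from reference (horizontal axis, with SE) of the brightest probe of each tested gene in the 3 lists, for HFoleic (circles) and HFepa (squares), filled where the adjusted p was under 0.05. No gene of the first list is filled, and Vldlr, Slc27a5, Srebf1 and Mlxipl are filled right of 0 while Ppargc1a is filled left of it.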

How the data were processed

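Liver RNA of 24 mice was measured on 1-colour Agilent arrays. The members and the gene lists were chosen with earlier results of these data known. The deposited scanner files give intensity values, made by the authors with Agilent Feature Extraction 10.10.1.1 per the labels; the deposited value table of 32176 probes holds log2 values from the authors, close to log2 of the median signal, and served as an alternative. Its probe filter is not given in the sources used here. From the median spot signal, control and outlier spots were left out, spots of a probe were averaged, probes were kept where 75% or more of the arrays of some group had them well above background, and log2 values were quantile normalized. limma 3.58.1 (R 4.3.3) fitted all 3 groups, with Benjamini-Hochberg adjustment over the 30003 probes and calls at an adjusted p under 0.05. The fit was tested on simulated data. A gene's level is that of its brightest probe. Of each list, genes called in any comparison were named; Abhd5, Lipe, Mgll, Hsd17b13, Ppara and Pparg were added after their values were seen. Correlations used 100000 permutations. Probe positions are those of the scanner files (mm9). The number of arrays limits the precision.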

Additional observations from a re-analysis of the deposited data

Results flagged for a closer look

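In 6 of 39 groups of values (13 probes in 3 groups), the highest or lowest mouse lay far from the others by Dixon's criterion, which chance meets in about 1 of 20 groups. Reference mouse 5, which also stood apart in adipocyte markers, gave 3 of them: it was highest in Plin3 at 12.55, lowest in G0s2 at 12.67 and lowest in the dimmer Cideb probe at 9.07. HFepa replicate 2 was the lowest of its group in both Cideb probes, at 15.09 and 9.38. HFepa replicate 1 was the highest of its group in Pnpla2, at 13.30.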

How the results depend on the processing

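The probes called among the 13 numbered 4, 0 and 0 (HFoleic and HFepa against reference, HFepa against HFoleic), and stood at those counts or within 1.5 times of them under every alternative that kept all mice. Leaving out 1 mouse at a time gave 3 to 5, 0 to 1 and 0 to 0. The 1 was Pnpla2 without reference replicate 8. Pnpla2 and Plin5 in HFoleic stayed past the threshold under all alternatives run. Cidec did not (its values are given above), and G0s2 in HFoleic passed it with array weights (-0.76, adjusted p 0.0286) and without reference mouse 5.

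Signs turned only for differences that no setting called. They were Cideb with the processed signal (HFoleic minus reference, -0.025), Cidea with a block for slides (-0.027) or for slide rows (-0.016), Plin4 with array weights (HFepa minus reference, -0.051), and Cideb as the mean of its probes (HFepa minus reference, 0.0061). With 1 mouse left out, the HFoleic differences ran from -0.48 to 0.38 for Cidea and from -0.20 to 0.13 for Plin4. Those of HFepa from reference ran from -0.067 to 0.012 for Cideb and from -0.035 to 0.25 for Plin4, and those of HFepa from HFoleic from -0.023 to 0.11 for Plin2 and from -0.12 to 0.19 for G0s2. The cause was not tested.

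Replicate numbers showed no steady pairing over all probes: same-numbered mice had correlations of their deviations from -0.17 to 0.10, -0.07 to 0.35 and -0.30 to 0.04 in the 3 comparisons. For some members the replicate number as a block lowered the SE of HFoleic minus reference. It went from 0.89 to 0.60 for Cidea and from 0.47 to 0.35 for Cidec, whose difference was then -1.80 (limma adjusted p 0.00654). With the replicate number as a block the counts were again 4, 0 and 0, Pnpla2 in HFepa stood at -0.46 (adjusted p 0.0502), and Plin2 in HFepa minus HFoleic turned to -0.010. Over all probes, the count for HFepa against reference moved from 118 to 0 without the filter on dim probes and in the methods' t-test, 47 with the processed signal, 177 with array weights and 1 without reference mice 4 and 5. With 1 mouse left out it ran from 0 to 499 (the latter without reference replicate 8). That for HFoleic against reference was 2170, and ran from 1451 without the filter to 2951 with array weights and from 1602 to 3097 with 1 mouse left out, and that for HFepa against HFoleic from 0 to 68 with array weights and from 0 to 15 with 1 mouse left out. Keeping outlier spots and leaving out mice 4 and 5 were chosen after seeing the data.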
